A study of Amphimedon queenslandica with 144 samples.

Results

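The transcripts described are 60 gene models of the demosponge Amphimedon queenslandica. Their median levels were higher in larvae that swam with the coralline alga Amphiroa fragilissima than in larvae kept in seawater. Median levels were also higher in animals that had settled on a second alga, Mesophyllum sp., than in larvae swimming with it. The 60 were chosen from 47411 counted features, of which 44016 were gene models of the Aqu2.1 set. Counts were scaled to each animal's total and expressed as CPM, and L denotes log2(CPM + 1). A gene model was kept when the median L of the swimming Amphiroa larvae exceeded that of the seawater larvae at each of 4 ages, which held for 1863. Of these, 1285 had a median of at least 5 CPM over the 36 swimming Amphiroa larvae, and 190 also had a median L at least 0.5 higher in 14 settled than in 18 swimming Mesophyllum animals. The 60 with the highest mean of the 4 differences are the members, and all 60 passed the low-count filter of the tests.

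Each library came from 1 whole animal, 144 in all. All but 9 were collected 2 h after a larva was placed alone in a well with a cue. The cues were a piece of Amphiroa fragilissima (Amphiroa below), a piece of Mesophyllum sp. (Mesophyllum) or filtered seawater. Exposure began 1.5, 3, 5 or 8 h post emergence, the time since the larva left its parent, so that the animals were 3.5, 5, 7 or 10 h old when fixed. Larvae still swimming made up 12 groups of 9. Post-larvae, animals that stayed attached when the plate was swirled, came from cues given at 5 and 8 h: 6 and 7 on Amphiroa and 7 and 7 on Mesophyllum. The other 9 animals were swimming larvae fixed at 0.5 h with no cue. Whole-animal RNA was counted, so fewer cells of a type and less RNA per cell cannot be told apart.

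Sponge larvae such as these are ciliated and non-feeding. They become able to settle some hours after they leave the mother, and coralline algae are well-known inducers of settlement in marine invertebrates. Settlement starts metamorphosis, in which the ciliated larval epithelium is lost and the juvenile body with its canals and choanocyte chambers is built. None of the 60 identifiers was found in the reference gene table of the species, so the members are given by identifier, with no gene name, role, position or sequence.

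The libraries held between 541737 and 4692279 counts (median 2011368.5), so that 1 count was worth 0.213 to 1.85 CPM. A library without a count of a member allows a level of up to 3 counts, which is 0.639 CPM in the deepest library and 5.54 CPM in the shallowest, for counting error only. Libraries carried 1 of 3 batch labels, T, K or C. All 13 settled Amphiroa animals were in C, as were 3 of 9 swimming Amphiroa larvae given the cue at 8 h and 0 of 9 given it at 5 h. All 9 larvae of 0.5 h were in T or K. The highest count in the table was 8192; counts above 4096 occurred 47 times among the members, all in Aqu2.1.22143_001, Aqu2.1.33566_001 and Aqu2.1.24530_001, and no member value reached the maximum. Whether the counting has an upper limit there, which would make the highest levels of these 3 members too low, was not tested.

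The values that chose the members are given as a description. The median difference in L between swimming Amphiroa and seawater larvae over the 60 members was 0.83 and 1.13 for the cues given at 1.5 and 3 h, and 1.05 and 0.57 for those given at 5 and 8 h. It was largest at 3 h in 23 members and at 5 h in 20, and smallest at 8 h in 31. The settled difference on Mesophyllum ran from 0.51 to 6.30 with a median of 1.77, and 7 members had a value of at least 4. The rank order was set by the larval difference and not by the settled one: Aqu2.1.08317_001, ranked 1 with a mean larval difference of 2.81, had a settled difference of 0.83, whereas Aqu2.1.24980_001, ranked 46 with 0.74, had the highest at 6.30.

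The edge of the list was narrow. Aqu2.1.26326_001 at rank 59 had a mean larval difference of 0.663, Aqu2.1.42000_001 at rank 60 had 0.656, and Aqu2.1.35200_001 at rank 61, just outside, had 0.653. Aqu2.1.42000_001 also had the lowest settled difference inside, 0.506, while Aqu2.1.07086_001 was left out with 0.482. The member of lowest level was Aqu2.1.24598_001 with a median of 5.52 CPM over the swimming Amphiroa larvae, and Aqu2.1.34619_001 was left out with 4.79 CPM. Another 102 gene models met the level and larval conditions with a mean difference at least as high as that of the last member, but had a settled difference below 0.5.

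**Figure D1:**
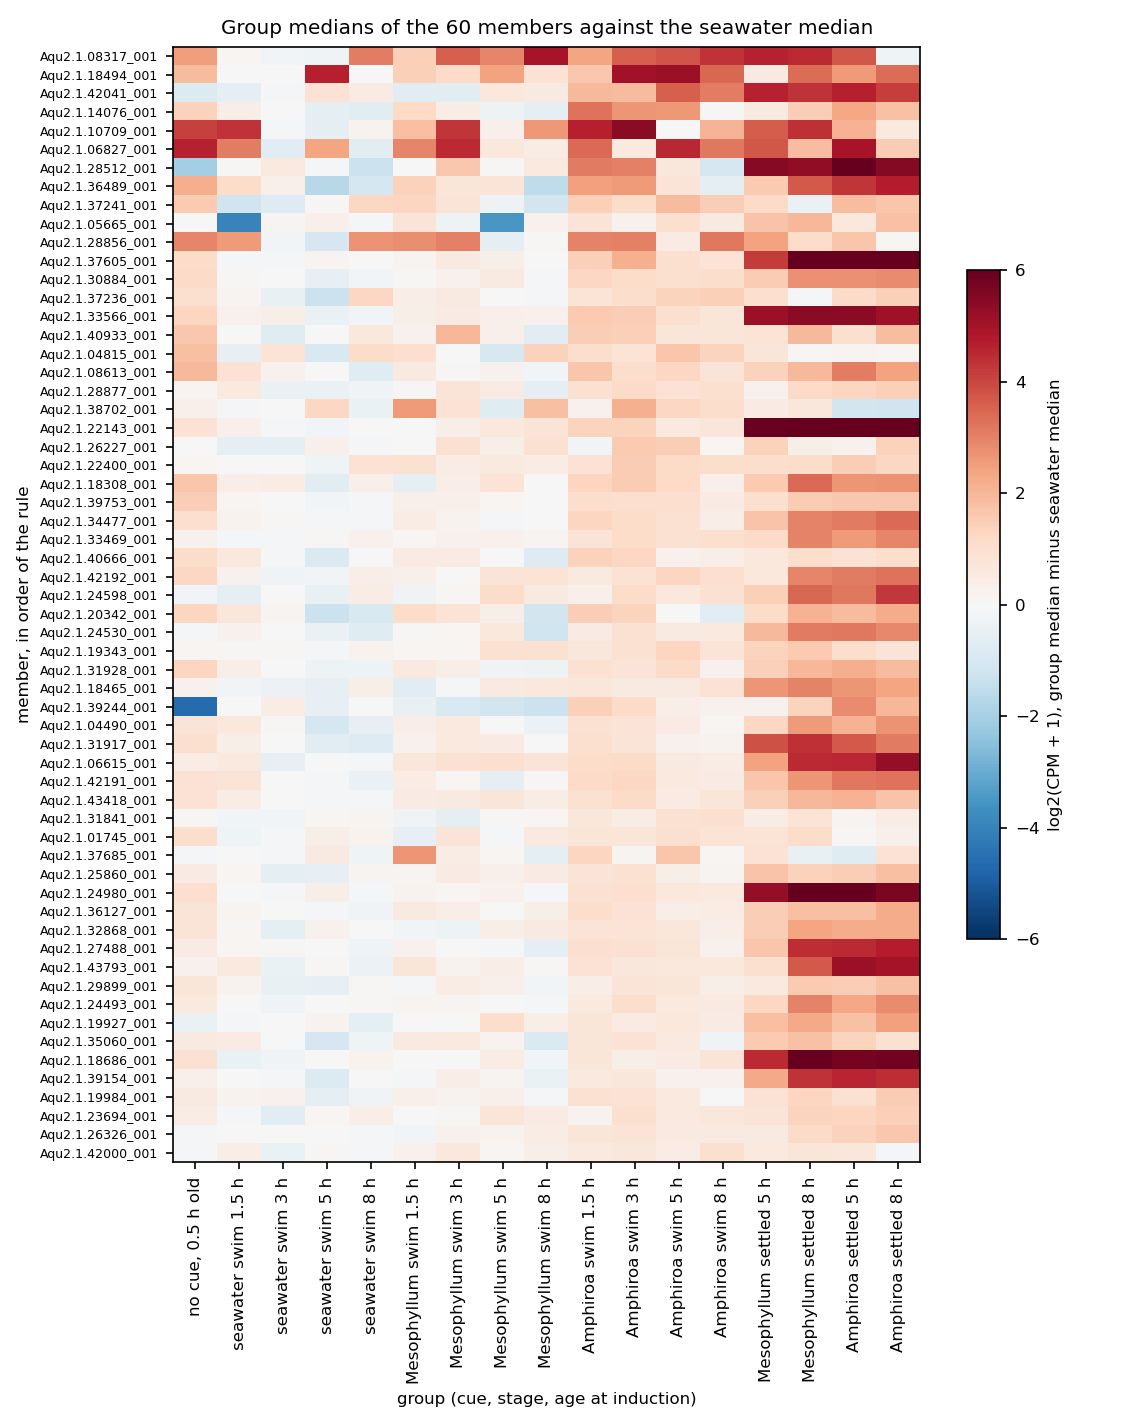
Group medians of L for each of the 60 members (rows, in order of the rule), minus the median over the 36 seawater larvae, in the 17 groups (columns). Colours stop at 6 log2 units in either direction. The settled columns at the right hold the highest values in most rows, and the rows near the top change from column to column among the swimming groups.

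The members differed in how evenly single larvae of 1 group carried them. The pooled standard deviation of L between swimming larvae within groups ran from 0.29 in Aqu2.1.39753_001 to 2.93 in Aqu2.1.06827_001, with a median of 0.76. A standard deviation of 1.3 or more was called uneven, a division made after the values were seen. It gave 15 uneven and 45 even members, and 10.1% of all 14950 features tested were uneven. Of the 10 members ranked first, 8 were uneven. Among the 117 swimming larvae, 37 of the 45 even members had a count in every larva, against 1 of the 15 uneven ones.

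Aqu2.1.18494_001, ranked 2, shows the uneven kind. In seawater larvae its level ran from 0 to 123 CPM with a median of 0 CPM over 36 larvae, and in swimming Amphiroa larvae from 0 to 151 CPM with a median of 8.29 CPM. In total 44 of 117 swimming larvae had no count of it, and every group, settled ones included, held both animals without a count and animals at 19.0 CPM or more. Aqu2.1.10709_001 and Aqu2.1.06827_001, ranked 5 and 6, had no count in 35 and 34 swimming larvae and reached 198 and 565 CPM in others.

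Aqu2.1.42041_001, ranked 3, was the first even member. It was measured at 0.4 to 4.57 CPM in the 9 larvae of 0.5 h, with a median of 1.71 CPM. The seawater larvae spanned 0 to 21.8 CPM around a median of 3.76 CPM, and the swimming Mesophyllum larvae 0 to 95.03 CPM around 3.16 CPM. In swimming Amphiroa larvae the medians were 17.4, 16.5, 56.8 and 39.01 CPM for cues given at 1.5, 3, 5 and 8 h. Its level in Amphiroa larvae was thus higher for cues given at 5 and 8 h than for earlier ones. At 1.5 and 5 h all Amphiroa larvae were above all seawater larvae of the same age, whereas at 3 and 8 h the ranges overlapped. The member was chosen by the difference between these larvae, so the separation is a description, and its share over all features was not computed.

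Aqu2.1.28512_001 and Aqu2.1.36489_001, ranked 7 and 8, had the opposite course with age. Aqu2.1.28512_001 had medians of 71.5 and 65.3 CPM in swimming Amphiroa larvae given the cue at 1.5 and 3 h, and of 12.3 and 3.08 CPM at 5 and 8 h. Aqu2.1.36489_001 had medians of 123, 132, 37.4 and 14.3 CPM at the same ages. In settled Amphiroa animals the medians were 536 and 372 CPM for Aqu2.1.28512_001 and 451 and 595 CPM for Aqu2.1.36489_001 for cues given at 5 and 8 h. Both were thus lower in the older swimming larvae than in the younger ones, and high again in animals of the older ages that had settled.

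**Figure D2:**
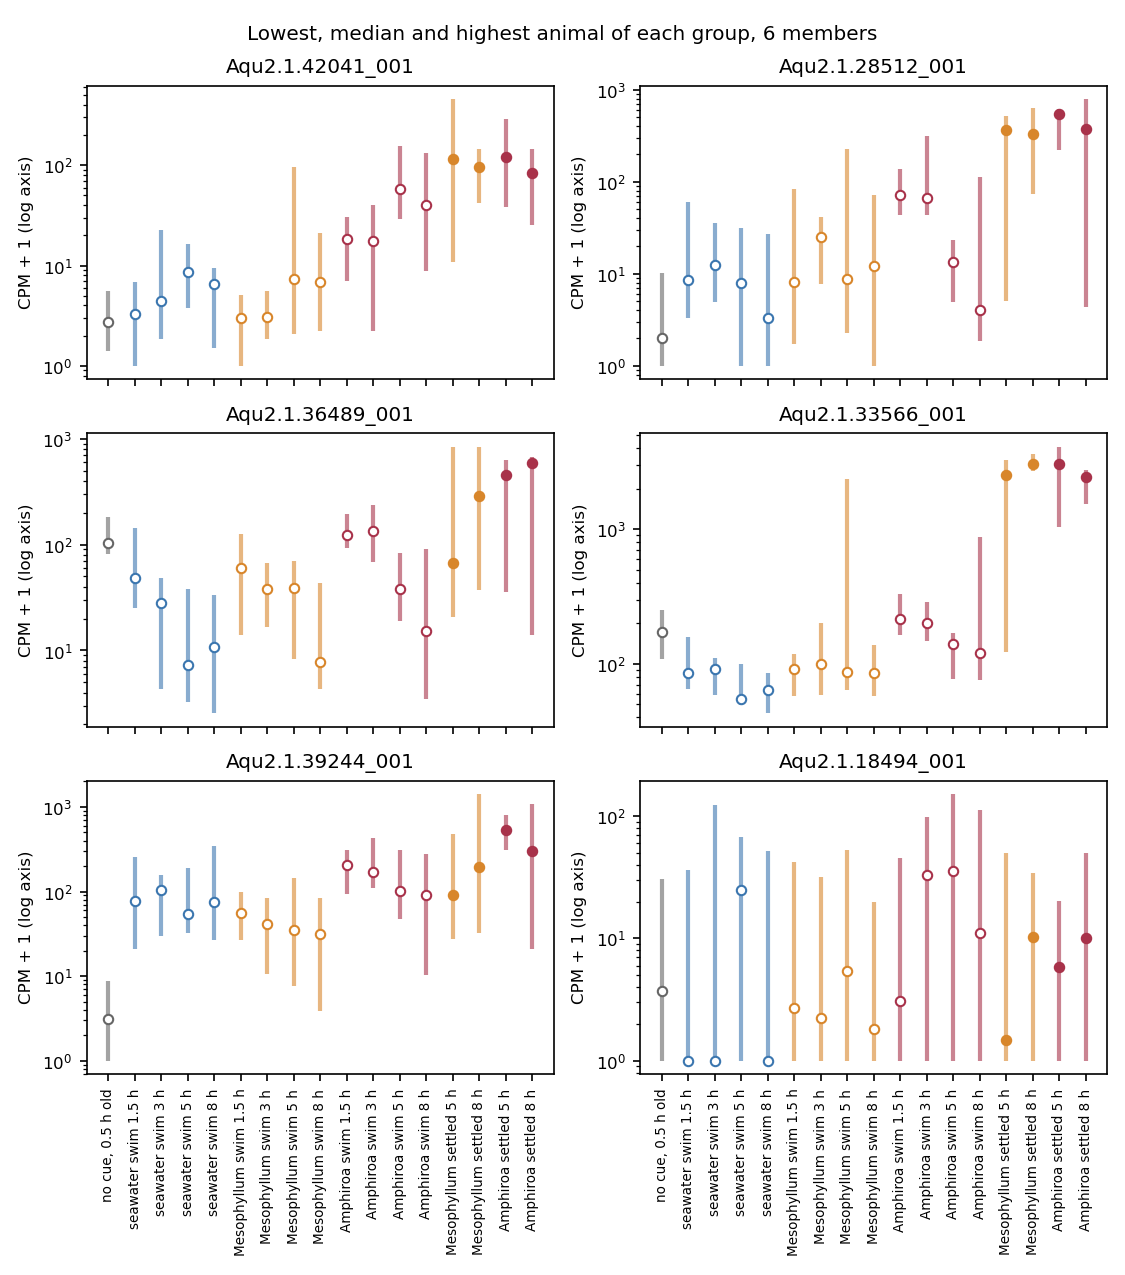
CPM + 1 (log axis) of 6 members in the 17 groups; bars run from the lowest to the highest animal, circles mark the group median, open for swimming larvae and filled for settled animals. Aqu2.1.42041_001 has its high medians with Amphiroa and after settlement, Aqu2.1.36489_001 has lower medians at 5 and 8 h than at 1.5 h in seawater and with Amphiroa and high ones in settled Amphiroa animals, and Aqu2.1.18494_001 spans 0 to high values in every group.

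The first comparison that the rule did not use set the 13 settled Amphiroa animals against the 18 larvae still swimming with Amphiroa at the same ages. Swimming Amphiroa larvae were the higher group when the members were chosen, which works against a rise here. Members also had to be at least 0.5 higher in L after settlement on Mesophyllum, which works towards a rise. Of the 60 members, 41 rose, 0 fell and 19 did not pass (edgeR, adjusted p below 0.05 over 14950 features). Among all features tested 13.3% rose and 11.8% fell. The median log2 fold change was 1.75 over the members and -0.11 over all features. At least 4-fold rises were seen in 26 members and at least 16-fold rises in 12, against 508 and 141 of all 14950 features. By evenness, 40 of the 45 even members rose, as did 1 of the 15 uneven ones, Aqu2.1.28512_001. The division used the spread among swimming larvae, those compared here included. The median standard error was 0.34 in even and 0.80 in uneven members, so that a change was harder to call in the latter. The shares by evenness over all features were not computed.

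Aqu2.1.06615_001 had the largest rise. Its level was 5.8 to 2175 CPM in settled Amphiroa animals with a median of 330.3 CPM, and 0 to 39.6 CPM in swimming ones with a median of 11.1 CPM. The log2 fold change was 5.90 (SE 0.66, edgeR adjusted p = 2.5e-13). The groups overlapped through the 2 lowest settled animals, at 5.8 and 7.1 CPM, and 1 further animal at 31.4 CPM.

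Aqu2.1.37605_001 was at 1.58 to 373 CPM in settled animals with a median of 266 CPM, and at 1.57 to 94.997 CPM in swimming larvae with a median of 5.27 CPM. It rose by 5.52 on the log2 scale (SE 0.52, edgeR adjusted p = 8.66e-17). All settled animals but the lowest 2 were at 79.7 CPM or more, and all swimming larvae given the cue at 8 h but the highest were at 16.5 CPM or less.

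Aqu2.1.28512_001 was at 3.34 to 787 CPM in settled animals around a median of 469 CPM, against 0.844 to 113 CPM around 8.46 CPM in swimming larvae. It rose by 5.35 on the log2 scale (SE 0.73, edgeR adjusted p = 1.32e-09). With 1 exception, at 3.34 CPM, every settled animal was above every swimming larva.

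Aqu2.1.18686_001 was measured at 39.02 to 1708 CPM in settled animals, with a median of 1027 CPM, and at 11.01 to 172 CPM in swimming larvae, with a median of 25.8 CPM. The log2 fold change was 5.34 (SE 0.42, edgeR adjusted p = 1.19e-21), the smallest adjusted p among the members. Aqu2.1.24980_001 was at 29.0 to 1029 CPM with a median of 619.5 CPM in settled animals and at 4.43 to 171 CPM with a median of 13.9 CPM in swimming larvae. It rose by 5.26 on the log2 scale (SE 0.47, edgeR adjusted p = 4.85e-18). In Aqu2.1.18686_001 the 2 lowest settled animals, at 39.02 and 105 CPM, were below the highest larva, and in Aqu2.1.24980_001 only the lowest was.

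Among the other first-ranked members, Aqu2.1.36489_001 rose by 4.68 on the log2 scale (SE 0.53, edgeR adjusted p = 5.87e-13), from 2.46 to 90.2 CPM in swimming larvae to 12.9 to 664 CPM in settled animals. Aqu2.1.42041_001 rose by 1.31 (SE 0.46, edgeR adjusted p = 0.0258), with 7.84 to 157 CPM in swimming and 24.6 to 291 CPM in settled animals, and this call was lost in 5 of 10 alternative analyses. The remaining 7 of the first 10 were uneven and did not pass, with log2 fold changes between -1.0002 and 1.78 and standard errors between 0.58 and 1.22. The lowest value of all members was that of Aqu2.1.38702_001, -1.80 (SE 0.80, edgeR adjusted p = 0.0867), which was at 0 to 16.9 CPM in settled and 0 to 90.6 CPM in swimming animals.

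**Figure D3:**
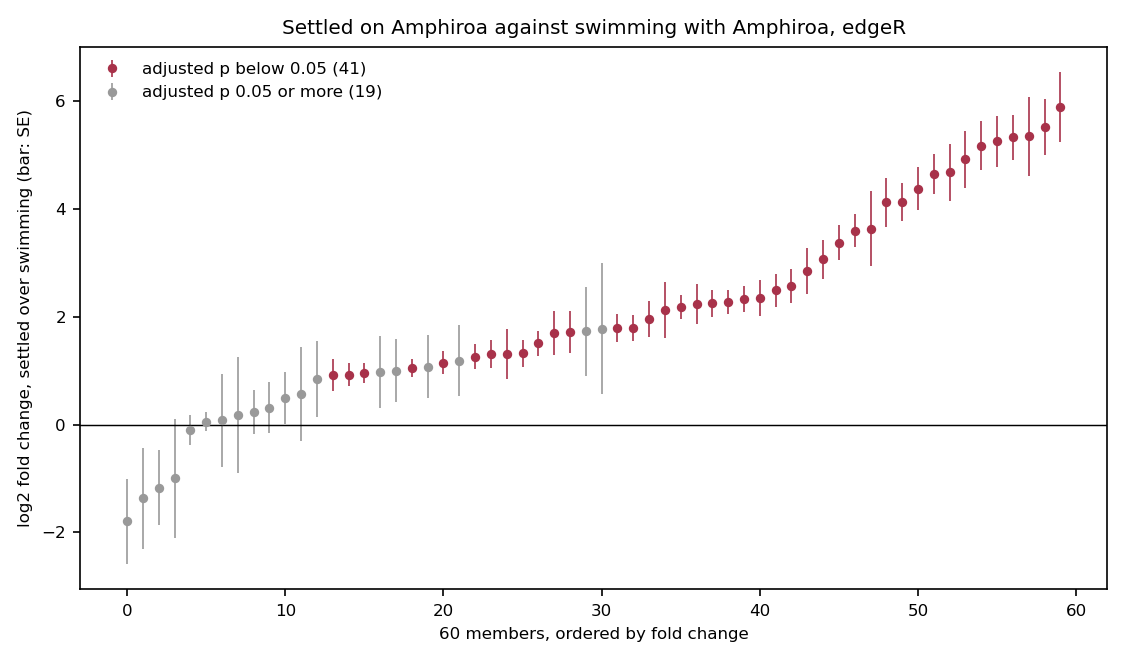
Log2 fold change of each member between settled and swimming Amphiroa animals with its standard error (vertical axis), ordered by size (horizontal axis). Coloured points are the 41 members with an edgeR adjusted p below 0.05 and grey points the other 19; the 4 lowest values, from -1.80 to -1.0002, are grey.

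Batch moved with this contrast, because every settled Amphiroa animal was in C. Within C, the cue given at 8 h allowed a comparison of 7 settled with 3 swimming animals, in which 15 members rose and 0 fell, while 153 of all 11474 features tested there rose and 21 fell. The scale also matters: levels printed here use column totals, whereas fold changes use scaling factors whose median was 0.36 lower (log2) in settled than in swimming Amphiroa animals. With column totals and no factor the median log2 fold change was -0.42 over all features and 1.38 over the members; 39 members rose and 1, Aqu2.1.38702_001, fell, while among all features 1126 rose and 3826 fell in place of 1988 and 1770.

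Single animals stood apart in both groups. The mean L over the 60 members was 6.16 to 6.82 in 11 of the 13 settled Amphiroa animals. It was 5.09 in animal 5 of those given the cue at 5 h and 4.81 in animal 6 of those given it at 8 h, inside the range of 3.57 to 5.80 of the 117 swimming larvae. These 2 were the 2 lowest settled animals for 28 of the 41 members that rose. Without them 41 members rose and 1 fell, while 2172 of all 15256 features tested rose and 2365 fell.

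Only 2 members had every settled Amphiroa animal above every swimming one, Aqu2.1.33566_001 and Aqu2.1.31917_001 (named after their values were seen), against 0.0535% of all features. Aqu2.1.33566_001 was at 1030.4 to 4096.1 CPM in settled animals and at 74.8 to 867 CPM in swimming larvae, and Aqu2.1.31917_001 at 68.6 to 665 and 13.03 to 43.4 CPM. Without the 2 animals the separation held in 19 members, against 0.943% of all features. The 2 were picked for their low member means, which works towards separation among the members. On the swimming side, larva 10 of those given Amphiroa at 8 h had a member mean of 5.62 and was the highest of its group for 28 of the 41 members that rose. In Aqu2.1.22143_001 it was at 783 CPM and the next larva at 70.4 CPM. Leaving it out left the count at 41.

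**Figure D4:**
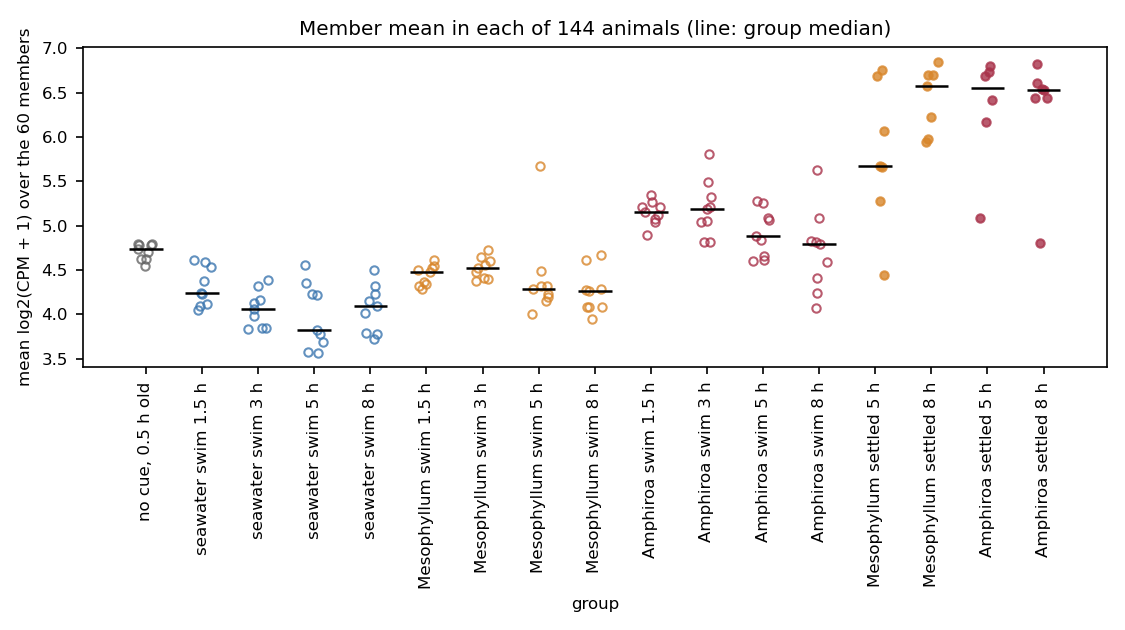
Mean L over the 60 members (vertical axis) in each of the 144 animals, by group; open circles are swimming larvae, filled circles settled animals and lines group medians. The 2 low settled Amphiroa animals lie at 5.09 and 4.81, and 1 larva swimming with Mesophyllum at 5 h lies at 5.67, apart from its group.

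The share of all counts held by the 60 members gives their weight in the transcriptome. It had a median of 0.226% over the 36 seawater larvae, 0.256% over the swimming Mesophyllum larvae and 0.3915% over the swimming Amphiroa larvae. In the 0.5 h larvae it was 0.296 to 0.367%, above the seawater median. In settled animals the median share was 2.06% on Amphiroa (0.512 to 2.63%) and 1.70% on Mesophyllum (0.216 to 2.74%). Choice of the members entered all of these values but those of the settled Amphiroa animals and the 0.5 h larvae.

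Set against larvae of 0.5 h, which like the settled Amphiroa animals had no part in the choice, 40 members rose in settled Amphiroa animals and 0 fell (edgeR), with 12.7% of all features rising and 11.2% falling. The median log2 fold change was 1.59 over the members and -0.04 over all features. Of the 45 even members 38 rose, and of the 15 uneven ones 2, with median standard errors of 0.43 and 0.996. The shares by evenness over all features were not computed here either. Age, cue and batch all differ between these groups and cannot be told apart from settlement. The condition of a rise at settlement on Mesophyllum works towards a rise here as well.

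The largest rise was that of Aqu2.1.28512_001, which was at 0 to 9.23 CPM in the 0.5 h larvae with a median of 1.02 CPM; its log2 fold change was 8.01 (SE 1.03, edgeR adjusted p = 1.47e-10). Aqu2.1.39244_001 was at 0 to 7.85 CPM in the 0.5 h larvae with a median of 2.14 CPM, and at 20.0 to 1067 CPM with a median of 360.2 CPM in settled Amphiroa animals. It rose by 7.38 on the log2 scale (SE 0.79, edgeR adjusted p = 8.95e-14), and no settled animal overlapped the 0.5 h larvae.

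Aqu2.1.37605_001 was at 0.769 to 14.03 CPM in the 0.5 h larvae and rose by 5.83 (SE 0.66, edgeR adjusted p = 8.81e-13). Aqu2.1.42041_001 rose by 5.76 (SE 0.66, edgeR adjusted p = 1.31e-12), from at most 4.57 CPM to at least 24.6 CPM. Aqu2.1.43793_001, at 1.85 to 6.77 CPM in the 0.5 h larvae and 5.01 to 354 CPM in settled animals, rose by 5.58 (SE 0.69, edgeR adjusted p = 3.88e-11). The settled animals of Aqu2.1.42041_001 were all above the 0.5 h larvae, whereas in the other pair of members the 2 lowest settled animals lay within the range of the 0.5 h larvae. In all, 8 members separated the groups without overlap, against 0.890% of all features, and 24 did so without the 2 low settled animals, against 2.21%. Those 2 were picked by their member means, which works towards separation here too.

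Settled animals allowed a comparison of Amphiroa given at 5 h and at 8 h. Between settled Amphiroa animals given the cue at 8 h and at 5 h, 0 members rose or fell (edgeR), with 0.816% of all features called in either direction. With so low a share over all features, 0 calls say little about the members. Among all features 42 rose and 80 fell, and with no scaling factor 49 and 59. At an unadjusted p below 0.05 there were 3 members, and the lowest edgeR adjusted p was 0.148, in Aqu2.1.37685_001, which had medians of 4.51 CPM at 5 h and 16.0 CPM at 8 h (log2 fold change 1.92, SE 0.64). DESeq2 also called 0. The standard errors had a median of 0.50 on the log2 scale, so that small differences were not detectable with 6 and 7 animals.

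Between animals settled on Amphiroa and on Mesophyllum, 0 members passed (edgeR), and 9 had an unadjusted p below 0.05. Over all features 0.428% were called in either direction, so that 0 calls say little about the members. Among all features 24 were higher and 40 lower on Amphiroa, and with no scaling factor 47 and 12. The settled Mesophyllum animals were the higher group when the members were chosen, which works towards high values there. The lowest edgeR adjusted p was 0.191, in Aqu2.1.38702_001, with 0 to 16.9 CPM on Amphiroa and 0 to 45.5 CPM on Mesophyllum (log2 fold change -1.96, SE 0.72). DESeq2 called 0. Without the 2 low settled Amphiroa animals, 4 members passed: Aqu2.1.38702_001, Aqu2.1.34477_001, Aqu2.1.42191_001 and Aqu2.1.26326_001, of which 3 were higher and 1 lower on Amphiroa. In that fit 258 of all 15256 features tested were higher and 541 lower, so that the calls among members rose along with those over all features.

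In animals settled on Mesophyllum the mean L over the members was 4.44 to 6.75 with a median of 5.67 for cues given at 5 h, and 5.94 to 6.85 with a median of 6.57 at 8 h. On Amphiroa the medians were 6.55 and 6.52. The 4 groups overlapped, and no test was made of these means because they are a score over chosen members.

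Larvae of 0.5 h tell what level the members had before any cue. In 48 of 60 members their median was above that of the seawater larvae given their water at 1.5 h, and in 20 it was above that of the Amphiroa larvae given the cue at 1.5 h. The shares over all features were not computed. Seawater larvae were the lower and Amphiroa larvae the higher group in the choice, which works towards a place of the 0.5 h larvae between them. The member mean had a median of 4.73 at 0.5 h. It was 4.24, 4.06, 3.82 and 4.10 in seawater larvae of increasing age, 4.48, 4.52, 4.28 and 4.26 with Mesophyllum, and 5.15, 5.19, 4.88 and 4.80 with Amphiroa. The seawater groups were thus the lowest at each age, the Amphiroa groups the highest among swimming larvae, and the 0.5 h larvae in between; the seawater and Amphiroa positions follow from the choice of members.

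In swimming Mesophyllum larvae most members had slightly higher medians than in seawater larvae. The median difference in L between them was 0.09, 0.43, 0.39 and 0.13 at the 4 ages, with 38, 50, 45 and 37 of 60 members higher with Mesophyllum. Over all 14950 features tested 7145, 8330, 7989 and 7092 were higher, with medians of at most 0.05. Seawater larvae were the lower group in the choice. Medians of the Mesophyllum larvae were below those of the Amphiroa larvae in 55 members at 1.5 h and in 54 at 3 h, and the shares over all features were not computed. No test is given because the seawater and Amphiroa larvae chose the members.

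Mesophyllum larvae given the cue at 1.5 h could be tested against the 0.5 h larvae, since neither group entered the choice. Age, time in a well and the alga differ together between these groups and cannot be told apart. Of the members 3 rose and 6 fell (edgeR), where 3.47% of all features rose and 3.22% fell, and the median log2 fold change was -0.33 over the members and 0.01 over all features. The 3 that rose were Aqu2.1.39244_001, Aqu2.1.37685_001 and Aqu2.1.28512_001.

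Aqu2.1.39244_001 went from 0 to 7.85 CPM at 0.5 h to 25.8 to 96.8 CPM, with no overlap (log2 fold change 4.30, SE 0.69, edgeR adjusted p = 1.44e-06). In seawater larvae given their water at 1.5 h it was at 19.7 to 255 CPM, and every older group had a higher median than the 0.5 h larvae. Aqu2.1.37685_001 was at 1.92 to 18.9 CPM at 0.5 h and 2.87 to 204 CPM with Mesophyllum (2.35, SE 0.52, edgeR adjusted p = 0.00095). Aqu2.1.28512_001 was at 0.736 to 82.5 CPM with Mesophyllum (2.83, SE 0.88, edgeR adjusted p = 0.0298). Both of the latter overlapped the 0.5 h larvae, and the call on Aqu2.1.28512_001 was lost with no low-count filter. The median of Aqu2.1.28512_001 was 7.11 CPM with Mesophyllum and 7.62 CPM in seawater larvae given their water at 1.5 h, which ran from 2.34 to 59.7 CPM.

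The falls were smaller. Aqu2.1.18308_001 was at 103 to 476 CPM at 0.5 h and at 12.5 to 353 CPM with Mesophyllum (log2 fold change -1.46, SE 0.45, edgeR adjusted p = 0.0296), a call lost in 3 of 7 alternative analyses. Aqu2.1.39753_001, the most even member, was at 217 to 254 CPM at 0.5 h and at 60.9 to 121 CPM with Mesophyllum, without overlap (-1.33, SE 0.19, edgeR adjusted p = 3.4e-08). Aqu2.1.30884_001 was at 50.3 to 163 CPM and 37.3 to 63.2 CPM (-1.12, SE 0.28, edgeR adjusted p = 0.00471). In settled Amphiroa animals Aqu2.1.39753_001 was at 128 to 425 CPM, with a log2 fold change of 0.12 (SE 0.20, edgeR adjusted p = 0.743) against the 0.5 h larvae.

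In seawater, 7 members fell and 0 rose between larvae given their water at 1.5 h and at 8 h (edgeR), with 4.03% of all features falling and 3.91% rising. With no scaling factor, which moved the median of all features from 0.02 to 0.16, 6 members fell, while 993 of all features rose and 378 fell in place of 584 and 602. Seawater larvae were the lower group in the choice at both ages. Aqu2.1.36489_001 fell most, from 24.4 to 143 CPM to 1.55 to 32.3 CPM, by 2.33 on the log2 scale (SE 0.59, edgeR adjusted p = 0.00487). Within batch T its log2 fold change was -3.89 (edgeR adjusted p = 0.00547) and within K -1.07 (edgeR adjusted p = 0.426). Aqu2.1.42191_001 fell by 1.51 (SE 0.50, edgeR adjusted p = 0.0435), from 3.68 to 9.58 CPM to 0.778 to 4.67 CPM, a call lost in 4 of 7 alternative analyses. Aqu2.1.20342_001 fell by 1.51 (SE 0.35, edgeR adjusted p = 0.00155), from 96.9 to 352 CPM to 16.7 to 139.9 CPM, and passed in neither batch alone (edgeR adjusted p = 0.0535 in T and 0.356 in K). The ranges of each of these members overlapped between the ages.

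Within batch T 2 members fell, with 97 of all 10981 features rising and 119 falling. Within K 1 fell, with 27 of 10459 rising and 31 falling. In T these were Aqu2.1.36489_001 and Aqu2.1.04490_001, and in K it was Aqu2.1.10709_001, which was not among the 7.

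The members were also followed along a settlement index, to see whether their levels in settled Amphiroa animals went with how far each animal had changed in other transcripts. The index was the mean log2 CPM of 1881 features that rose minus that of 1218 that fell between settled and swimming Mesophyllum animals, with the members left out. Over the 117 swimming larvae it ran from 0.20 to 1.01 and over the 13 settled Amphiroa animals from 0.72 to 3.28. The 2 animals with low member means had the lowest indices, both 0.72, and the next, animal 6 of those given the cue at 5 h, had 1.10 and a member mean of 6.16. Among settled Mesophyllum animals, 3 with indices of 1.04 to 1.06 had member means of 5.27, 5.67 and 5.66.

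The 10 first-ranked members were correlated with the index over the 13 settled Amphiroa animals. How many of all features would pass this test was not computed. Choice of members and index features from the same rise on Mesophyllum works towards a correlation. Only 1 member passed, Aqu2.1.36489_001. Its Pearson r was 0.943 (permutation p = 1e-05, the smallest that 100000 resamples give; adjusted p = 0.0001 over 10 members) and its Spearman rho 0.846 (permutation p = 0.00048, adjusted p = 0.0048). Without the 2 animals farthest from the median index r was 0.919, and it was 0.965 among the 6 animals given the cue at 5 h and 0.965 among the 7 given it at 8 h. All of these animals were in batch C. Aqu2.1.28512_001 had r = 0.583 (permutation p = 0.0267, adjusted p = 0.134) and rho = 0.462 (permutation p = 0.113, adjusted p = 0.490), and r was 0.204 without the same 2 animals. Its r was 0.177 among the animals given the cue at 5 h and 0.959 among those given it at 8 h, where it passed (exact permutation adjusted p = 0.0228). Aqu2.1.42041_001 had r = 0.228 (permutation p = 0.455, adjusted p = 0.639) and rho = 0.0714 (permutation p = 0.822, adjusted p = 0.911), and r was -0.654 without them.

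Over all 60 members the median rho with the index was 0.35, and 21 (35%) were above 0.5. Over all features tested the median was -0.23 and 9.09% were above 0.5. Members and index features were both taken from the rise on Mesophyllum, so these values are a description.

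**Figure D5:**
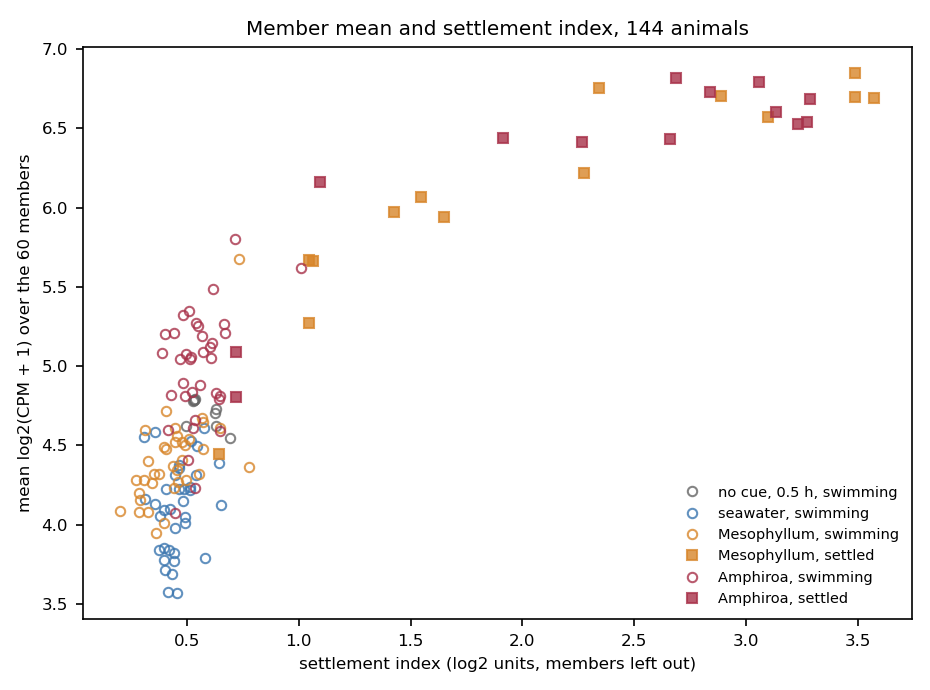
Mean L over the 60 members (vertical axis) against the settlement index made from other features (horizontal axis, log2 units) in the 144 animals; circles are swimming and squares settled animals. Settled animals between index 1.04 and 1.65 have member means of 5.27 to 6.16, and those at 1.91 and above lie between 6.22 and 6.85.

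Some members lay next to each other in the identifier series. Aqu2.1.42191_001 and Aqu2.1.42192_001 have consecutive numbers, and Aqu2.1.37236_001 and Aqu2.1.37241_001 are 5 apart. In the first pair both rose in settled Amphiroa animals, by 4.12 (SE 0.46) and 2.24 (SE 0.37) on the log2 scale (edgeR adjusted p = 2.99e-13 and 3.89e-07). Neither of the second pair passed, with values of 0.98 (SE 0.66) and 1.19 (SE 0.66). Whether such neighbours share reads through similar sequence was not tested.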

How the data were processed

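Single larvae and post-larvae were sequenced by CEL-Seq2, a 3' method that tags poly(A) RNA, and assigned to the Aqu2.1 gene models with the CEL-Seq pipeline, per the series text. The aligner is not given in the sources used here, nor is the build. The deposited table holds whole-number counts per feature, summed over 2 sequencing lanes by the authors, with spike-in and bacterial features taken out, per the table's name. Whether animals of 1 group came from separate mothers is not stated, so p-values measure the spread between these animals.

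Tests used edgeR 4.0.16 in R 4.3.3: TMM factors (0.644 to 1.20), a low-count filter by group (14950 features kept), a robust quasi-likelihood fit to all 144 animals with 17 groups and batch, and Benjamini-Hochberg adjustment over all features kept, with a threshold of 0.05. Printed levels are CPM of the column total; printed fold changes are on the TMM scale. Descriptions, correlations and plots used Python 3.11.15, NumPy 2.4.6, pandas 2.3.3, SciPy 1.17.1 and matplotlib 3.10.9. The settlement index used log2 CPM with a prior count of 2. The procedure was tested on simulated data.

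Members, comparisons and alternatives were chosen with earlier results of these data known. Genes named are the first 10 by rank, the members at the edge, and for each comparison up to 5 largest rises and 3 largest falls that passed; others were named after their values were seen. For the contrasts used by the choice no test of members is given; the calls of the Mesophyllum contrast over the other features served to build the settlement index. Alternatives were another scaling, DESeq2 1.42.0, no filter, no batch term, a replicate block, the compared groups alone and single batches. Replicate numbers were not treated as pairs in the main fit. Over 41 pairs with a shared number, deviations correlated between -0.203 and 0.288, with a median of -0.006, and 5 were above 0.1. Between settled Amphiroa animals given the cue at 5 and 8 h they ran from -0.022 to 0.243. Pairs of unlike number were not compared, so a weak pairing there was not tested.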

Additional observations from a re-analysis of the deposited data

Results flagged for a closer look

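Within each group, the animal farthest from the rest was compared with the group's range by Dixon's criterion, for the member mean in 17 groups and for the named members in the settled Amphiroa groups and the larvae of 0.5 h. It was met in 18 of 89 sets of values, where chance gives about 1 in 20 for normally distributed values. Levels of named members were taken in CPM without a logarithm, and some were named for their rise in settled Amphiroa animals. That rate therefore need not hold here. The sets share animals and are not independent.

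The member mean of L was 5.09 in animal 5 of those settled on Amphiroa at 5 h, with the others at 6.16 to 6.79. It was 4.81 in animal 6 of those settled on Amphiroa at 8 h, with the others at 6.44 to 6.82. In larvae swimming with Mesophyllum at 5 h, larva 10 was high at 5.67, with the others at 4.01 to 4.49.

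Animal 6 of those settled on Amphiroa at 8 h met the criterion as the lowest of its group in 6 named members. Its level was 3.34 CPM in Aqu2.1.28512_001, 12.9 CPM in Aqu2.1.36489_001 and 7.10 CPM in Aqu2.1.06615_001. It was 7.93 CPM in Aqu2.1.37605_001, 105 CPM in Aqu2.1.18686_001 and 103 CPM in Aqu2.1.30884_001. The same animal was the highest in Aqu2.1.42000_001, at 71.8 CPM against 16.1 to 28.1 CPM.

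Animal 5 of those settled on Amphiroa at 5 h met it as the lowest in Aqu2.1.37605_001 at 1.58 CPM, in Aqu2.1.24980_001 at 29.0 CPM and in Aqu2.1.30884_001 at 90.7 CPM. Among larvae of 0.5 h the lowest animals stood apart in Aqu2.1.14076_001 at 1.08 CPM, Aqu2.1.37241_001 at 3.20 CPM, Aqu2.1.24980_001 at 3.21 CPM, Aqu2.1.18308_001 at 103 CPM and Aqu2.1.30884_001 at 50.3 CPM.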

How the results depend on the processing

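Of 60 members, 41 were called between settled and swimming Amphiroa animals, and the 10 alternatives gave 15 to 44; the 15 came from batch C alone at 8 h, which holds 10 animals. The replicate block gave 37 there and 35 against the 0.5 h larvae in place of 40. It left the other counts within 1.5 times of theirs, although the numbers were not shown to pair animals. Between the settled animals of both algae the count of 0 became 4 without the 2 settled animals of lowest member mean, an alternative chosen after seeing the data, in which 258 of all 15256 features rose and 541 fell in place of 24 and 40 of 14950. In seawater the count of 7 became 2 in batch T alone and 1 in batch K alone, with fewer larvae. For the settlement index, 1 of 10 members passed over all settled Amphiroa animals, 0 at 5 h alone and 2 at 8 h alone. The r of Aqu2.1.42041_001 with the index changed from 0.228 to -0.654 without 2 animals; the cause was not tested. Among calls on named members, 165 values under alternatives kept the call, and 19 lost it with the direction kept. The rule itself found 40 of the 60 members again with means in place of medians, 48 with TMM scaling and 51 in batches T and K alone.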
